A study of Mus musculus with 6 samples.

Results

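The genes described here make steroid hormones or control their making, and they were followed in newborn mouse ovaries that lack Sohlh1 and Sohlh2. The set was given as 10 gene symbols, in the order of the pathway from cholesterol to estradiol: Star, Cyp11a1, Hsd3b1, Cyp17a1, Hsd17b3, Cyp19a1, Hsd17b1 and Srd5a1, with the regulators Nr5a1 and Lhcgr. Every probe whose platform symbol was a member was taken. Of the 10 genes, 7 had a named probe, 12 probes in all among 45281 on the array, and Cyp19a1 (aromatase), Lhcgr (the receptor of luteinising hormone) and Srd5a1 (a steroid 5-alpha-reductase) were not analysed here.

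Total RNA of newborn ovary was hybridised to Illumina MouseWG-6 BeadChips, 2 arrays from wildtype animals and 4 from animals with both Sohlh1 and Sohlh2 knocked out, all of the strain given as C57BL/6/129S6/SvEv. Sohlh1 and Sohlh2 are transcription factors of germ cells with a basic helix-loop-helix domain. The labels do not say which exons were deleted, whether a sample held 1 animal or a pool, or whether samples came from separate litters; a p-value here therefore reflects how these samples vary, which may be technical. Arrays are called by the number in their title, wildtype 2 and 3 and double knockout 1, 2, 3 and 5.

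Steroid hormones are made from cholesterol in a chain of steps. The carrier Star brings cholesterol into the mitochondrion, Cyp11a1 cuts its side chain to give pregnenolone, 3-beta-hydroxysteroid dehydrogenases turn pregnenolone into progesterone, and Cyp17a1 leads on to androgens, which aromatase and 17-beta-hydroxysteroid dehydrogenases turn into estradiol. In the adult ovary theca cells make the androgens and granulosa cells the estrogens, under the orphan nuclear receptor Nr5a1 (SF-1) and the pituitary gonadotropins, whereas the newborn mouse ovary, which has no theca layer yet, makes little steroid.

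Each array detected between 20124 and 20594 probes, where a probe was called detected at a detection p under 0.05. Both probes of Sohlh1 fell in the double knockout (log2 fold changes -3.32 and -3.29, adjusted p = 3.41e-05 each), with raw signals of 7443 to 8932 on the wildtype arrays and 594 to 898 on the double-knockout arrays. Where these probes lie relative to the deletion is not known here. The Sohlh2 probe read 76.4 and 60.2 in wildtype against 58.2, 62.6, 56.2 and 50.5, was detected on 1 wildtype array and 0 double-knockout arrays, and was not tested, so these values do not show its loss. Ovarian somatic markers were present: Amhr2, the receptor of anti-Müllerian hormone, gave raw signals of 3041 to 4821 with its brightest probe, while Foxl2, a transcription factor of granulosa cells, was detected on 3 of the 6 arrays. The second principal component, with 19.3% of the variance, set double-knockout array 3 against array 5.

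Promoter windows from RefSeq (GRCm38.p6, 250 bases before to 50 after the start) were held for 6 of the 10 genes. Those of 3 measured members are shown because they include 1 detected gene, Cyp11a1, and 2 whose probes all stayed at background, Hsd3b1 and Hsd17b3. The Cyp11a1 windows are chr9:57997774-57998073 on the plus strand and chr9:58014702-58015001 on the plus strand, the Hsd3b1 window is chr3:98859745-98860044 on the minus strand, and the Hsd17b3 window is chr13:64089152-64089451 on the minus strand. Capitals mark AGGTCA on either strand, the core of the half-site that Nr5a1 and other nuclear receptors bind, and CANNTG, the E-box of basic helix-loop-helix proteins such as Sohlh1 and Sohlh2.
Cyp11a1, upstream start: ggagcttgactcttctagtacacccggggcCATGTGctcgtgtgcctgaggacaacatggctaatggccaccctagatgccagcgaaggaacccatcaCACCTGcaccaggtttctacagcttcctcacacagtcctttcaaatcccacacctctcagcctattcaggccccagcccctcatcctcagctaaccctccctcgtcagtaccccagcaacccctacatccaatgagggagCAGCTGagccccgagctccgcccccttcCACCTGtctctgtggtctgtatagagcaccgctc
Cyp11a1, downstream start: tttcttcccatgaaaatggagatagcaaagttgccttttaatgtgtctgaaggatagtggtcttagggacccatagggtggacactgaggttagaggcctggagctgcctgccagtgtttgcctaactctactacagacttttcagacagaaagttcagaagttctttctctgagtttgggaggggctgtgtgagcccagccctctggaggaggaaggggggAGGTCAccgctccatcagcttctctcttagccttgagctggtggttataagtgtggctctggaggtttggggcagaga
Hsd3b1: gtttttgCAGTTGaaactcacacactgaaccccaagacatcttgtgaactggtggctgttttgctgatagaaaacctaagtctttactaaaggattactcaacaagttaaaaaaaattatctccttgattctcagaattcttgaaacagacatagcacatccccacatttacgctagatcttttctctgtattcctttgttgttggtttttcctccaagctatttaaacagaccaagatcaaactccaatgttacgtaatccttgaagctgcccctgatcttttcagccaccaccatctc
Hsd17b3: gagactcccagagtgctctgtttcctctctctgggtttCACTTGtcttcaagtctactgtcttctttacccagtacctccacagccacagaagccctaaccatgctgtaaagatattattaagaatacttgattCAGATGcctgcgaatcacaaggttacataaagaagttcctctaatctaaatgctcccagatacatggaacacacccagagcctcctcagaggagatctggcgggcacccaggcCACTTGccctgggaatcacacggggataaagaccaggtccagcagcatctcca
AGGTCA occurred once among these windows, 28 bases before the downstream start of Cyp11a1, and 16.3% of 32851 promoter windows of the same length hold it. E-box letters stood in the upstream Cyp11a1 window at 4 places, in the Hsd17b3 window at 3 and in the Hsd3b1 window at 1, and 72.3% of all windows hold at least 1. The motifs do not overlap here, and a match describes letters, not a bound site.

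At the start of the pathway the ovary gave no measurable Star. The Star probe read 59.8 and 53.8 on the wildtype arrays and 54.9, 53.0, 54.0 and 61.2 on double-knockout arrays 1, 2, 3 and 5. These signals lie within the background of both genotypes, whose lowest detected signals were 62.6 to 64.8. Hsd3b1, the 3-beta-hydroxysteroid dehydrogenase of mouse gonads and adrenal, read 53.6 and 46.8 against 55.9, 58.0, 49.7 and 46.9. The 3 probes of Hsd17b3, which reduces androstenedione to testosterone and is known from fetal Sertoli cells of the mouse, ran from 43.6 to 60.2 on all 6 arrays. In total 6 of the 12 probes, 1 each of Star, Hsd3b1 and Cyp11a1 and 3 of Hsd17b3, were detected on 0 arrays (detection p from 0.0759 to 0.977). No fold is given for them, and a difference in these genes was not detectable at this signal.

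**Figure D1:**
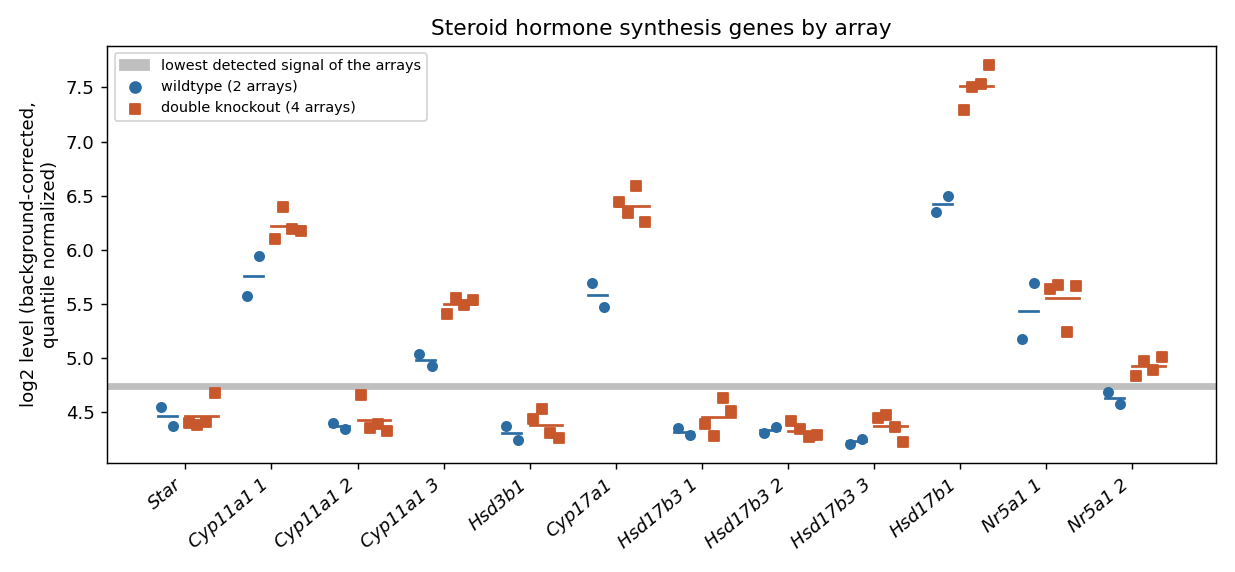
Log2 level (background-corrected and quantile normalized) of the 12 probes in pathway order, with points for single arrays and lines for group means; genes with several probes are numbered in the order of their probe names. Grey marks the lowest detected signal of the arrays (4.72 to 4.76). The Cyp17a1 and Hsd17b1 points of the double knockout lie above both wildtype points, and the Star, Hsd3b1 and Hsd17b3 points lie below the grey band.

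Of the 6 probes that were tested (detected on at least 2 arrays), 2 were higher in the double knockout and 0 lower, those of Cyp17a1 and Hsd17b1. Over all 21981 tested probes 3.65% were called higher, 3.62% lower and 7.27% in either direction, at an adjusted p under 0.05. The median change was 0.49 on the log2 scale over the 6 probes, which hold 2 each of Cyp11a1 and Nr5a1, and 3.01e-05 over all tested probes. Of the 5 member probes detected on all 6 arrays, 4 had every double-knockout array above both wildtype arrays, as had 17.8% of all tested probes. The other tested probe, of Nr5a1, was detected on double-knockout arrays alone and so passed the filter only through the group in which it was brighter. It is counted in the median of 0.49.

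Cyp11a1, the enzyme that commits cholesterol to steroids, was detected by 2 of its 3 probes on every array. Probe ILMN_2634367 read 73.1 and 68.7 in wildtype and 75.6, 83.4, 80.7 and 82.2 in the double knockout, which after background correction and normalization are log2 levels of 4.98 ± 0.08 (SD, n = 2) and 5.50 ± 0.07 (SD, n = 4). Every double-knockout array was above both wildtype arrays, but the change of 0.51 ± 0.13 (SE) missed the threshold (adjusted p = 0.0513, limma; 95% interval 0.21 to 0.82). The other probe, ILMN_2467151, read 91.0 and 102.7 against 97.4, 119.8, 108.5 and 106.9, and array 1 of the double knockout was below wildtype 3 in raw signal and above it once normalized. Its change was 0.46 ± 0.16 (SE, adjusted p = 0.117, interval 0.10 to 0.82). The mean of these probes, an alternative chosen after seeing the data, was called (0.49, adjusted p = 0.0448), so the Cyp11a1 call turns on how its probes are combined. ILMN_2634367 was called under 75th percentile scaling (0.61, adjusted p = 0.0282), with no filter (0.0284), with the stricter filter (0.0422) and with array weights (0.0465), and without background correction its change was 0.26 (adjusted p = 0.128).

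Cyp17a1, the hydroxylase and lyase that opens the way to androgens, rose in the double knockout. Its single probe read 95.8 and 83.9 in wildtype and 112.5, 116.7, 131.9 and 110.9 in double-knockout arrays 1, 2, 3 and 5. The highest wildtype signal was below the lowest double-knockout signal. Log2 levels were 5.58 ± 0.15 (SD, n = 2) and 6.41 ± 0.14 (SD, n = 4), a change of 0.83 ± 0.15 (SE) or 1.78-fold (adjusted p = 0.0145, limma). The call ended when wildtype array 2 was left out (0.93, adjusted p = 0.0892) or wildtype array 3 (0.72, adjusted p = 0.114), and held without any single double-knockout array. Without background correction the change was 0.52 (adjusted p = 0.0207).

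Hsd17b1, which reduces estrone to estradiol in granulosa cells, rose in the double knockout, with the largest change of the 6 tested member probes. It read 131.0 and 132.4 in wildtype and 169.1, 218.5, 219.1 and 239.2 in the double knockout. The wildtype arrays nearly coincided, and all 4 double-knockout arrays stood above them. Log2 levels were 6.43 ± 0.10 (SD, n = 2) and 7.51 ± 0.17 (SD, n = 4), and the change was 1.08 ± 0.16 (SE), 2.12-fold (adjusted p = 0.00528, limma; 95% interval 0.73 to 1.44). Without wildtype array 2 the call ended (1.01, adjusted p = 0.0831), and without wildtype array 3 it held (1.16, adjusted p = 0.0428). The change was 0.83 without background correction and 0.82 in the authors' normalized values, with the call kept in both.

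Nr5a1, the nuclear receptor that drives most genes of this pathway in gonad and adrenal, was not called. Probe ILMN_1254140, detected on every array, read 77.1 and 91.5 in wildtype and 82.0, 87.3, 73.8 and 86.2 in the double knockout. After normalization all 4 double-knockout arrays lay between the wildtype arrays, and the change was 0.12 ± 0.20 (SE, adjusted p = 0.749). Its 95% interval of -0.32 to 0.57 leaves room for a change in either direction, and the value was -0.13 without wildtype array 2. The second probe, ILMN_2749611, was detected on 0 wildtype and 4 double-knockout arrays, with 63.6 and 60.3 against 64.1, 68.3, 65.8 and 68.5. Set against the lowest detected signal, its mean level was 1.15-fold brighter in the double knockout. The fitted change was 0.30 ± 0.13 (SE, adjusted p = 0.218, limma), and its 95% interval of -0.0091 to 0.60 includes no change, so no minimum fold follows.

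**Figure D2:**
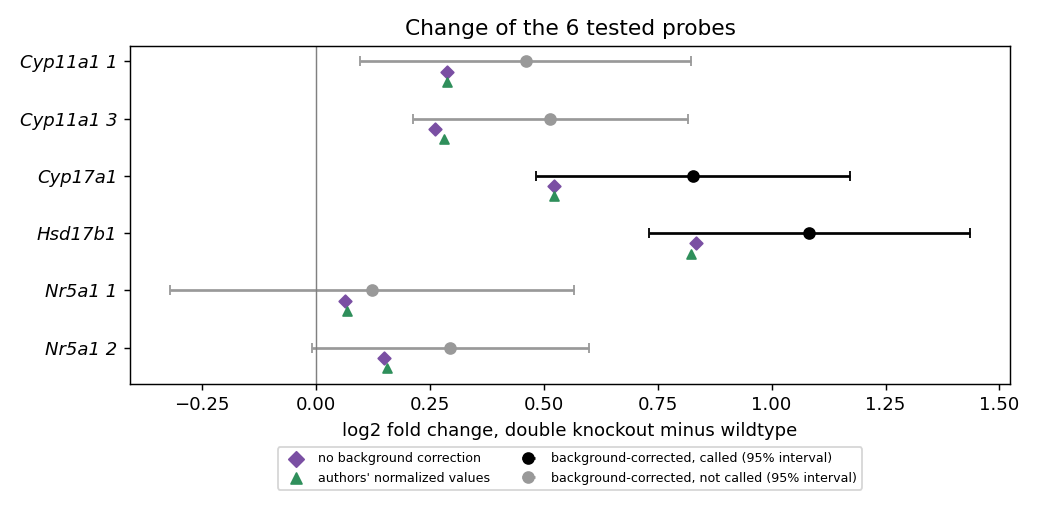
Log2 fold change (double knockout minus wildtype) of the 6 tested probes, with 95% intervals from limma as bars, called probes in black, and the values without background correction and from the authors' normalized table as diamonds and triangles. Hsd17b1 (1.08) and Cyp17a1 (0.83) are the 2 called probes, the others are in grey, and for each probe the uncorrected value lies nearer 0.

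The genes whose levels across the 6 arrays ran closest to the called members were sought among 11763 genes, by the mean absolute difference of log2 levels centred on each gene's own mean. Nearest to Cyp17a1 were Abi3, an actin-regulating adaptor (mean difference 0.06), Asns, asparagine synthetase (0.07), and Ramp1, which modifies receptors of the calcitonin family (0.07). Their own changes were 0.82, 0.96 and 0.75. Nearest to Hsd17b1 were Dapk2, a calmodulin-dependent kinase (0.06), Prss48, a serine protease (0.07), and B3galt4, a galactosyltransferase (0.07), with changes of 1.20, 1.06 and 1.03. The choice by likeness fixes the direction of these changes.

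The wider pathway was read in the same fit, beside all tested genes. Of 103 other genes in the 7 pathway lists, 84 had a named probe and 69 were tested, each by its brightest probe. Of these, 3 were higher in the double knockout (Rgs2, Akr1c18 and Crem), 0 lower and the rest not called, with a median change of 0.03. Among all 12163 genes, 4.79% were called higher, 3.58% lower and 8.38% in either direction, and the median was 0.03. The count fell to 1 when wildtype array 2 was left out and to 0 for wildtype array 3, and was 2 without double-knockout array 1, 2 or 5.

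Cholesterol supply showed no called gene among 13 tested (median 0.01). Sqle, squalene epoxidase of cholesterol synthesis, read 1369.7 and 1324.6 in wildtype and 700.6, 964.0, 795.0 and 801.3 in the double knockout, with no overlap and a change of -0.53 ± 0.14 (SE, adjusted p = 0.0600). Sqle was called under 5 of 17 alternatives, among which its adjusted p ran from 0.0264 to 0.257. A second, dimmer Sqle probe gave -0.81 and was not called. Npc1, which exports cholesterol from lysosomes, gave 0.35 by its brightest probe (adjusted p = 0.379, limma). The 3 tested probes of Npc1 ran from -0.08 to 0.35, and 0 were called. Of 3 electron transfer genes tested 0 were called (median -0.11). Cyb5b, a mitochondrial cytochrome b5, gave -0.11 and Cyb5r3, its reductase partner, 0.09. The 3 tested probes of Cyb5r3 ran from -0.59 to 0.09, and 0 were called. Fdx1, the ferredoxin that feeds electrons to Cyp11a1, was detected on 0 arrays.

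Other steroid-forming enzymes gave 0 calls among 8 tested (median 0.03). Hsd3b2, a relative of Hsd3b1, gave 0.51 ± 0.20 (SE, adjusted p = 0.148), and Hsd3b7, which acts in bile acid synthesis, 0.10 (adjusted p = 0.763). Probes of the mouse Hsd3b family may not tell its near-identical members apart. Of the other 17-beta-hydroxysteroid dehydrogenases 7 were tested, outside the naming rule and chosen after their values were seen. By their brightest probes they gave changes from -0.38 (Hsd17b12) to 0.71 (Hsd17b2) and 0 calls. A second tested Hsd17b12 probe went the other way (0.18) and was not called. Hsd17b2, which turns estradiol back into estrone, read 65.8 and 75.1 in wildtype against 80.6, 77.2, 88.7 and 100.7, so the groups did not overlap (0.71 ± 0.21 SE, adjusted p = 0.0777).

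Among 13 tested genes of steroid inactivation, Akr1c18, which turns progesterone into an inactive form, was the 1 called gene (median of the list 0.05). It read 93.5 and 82.6 in wildtype and 182.9, 219.2, 102.7 and 148.4 in the double knockout. All 4 double-knockout arrays were above both wildtype arrays, though array 3 stood close to them. The change was 1.44 ± 0.36 (SE), 2.71-fold (adjusted p = 0.0454, limma). The call was lost without wildtype array 2 (adjusted p = 0.218) or 3 (0.208) and without double-knockout array 1 (0.0994), 2 (0.0754) or 5 (0.0600), and without background correction the change was 0.98 (adjusted p = 0.0476).

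Gonadotropin and cAMP signalling held 2 called genes of 16 tested (median 0.10). Rgs2, which curbs G protein signalling, read 133.9 and 115.6 in wildtype and 200.3, 191.0, 229.1 and 251.7 in the double knockout, without overlap. Its change was 1.26 ± 0.17 (SE, adjusted p = 0.00387), its second probe was called too (0.82), and the call of the brighter probe ended without wildtype array 3 (1.17, adjusted p = 0.0524). Crem, a cAMP-responsive transcription factor whose gene also encodes the repressor ICER, read 110.1 and 109.1 against 137.1, 142.4, 165.0 and 159.1. It rose by 0.87 ± 0.14 (SE, adjusted p = 0.00886, limma). The call ended without wildtype array 2 or 3, where the change was 0.82 and 0.92. Of its 7 probes, 3 were called higher, 1 gave 0.28 and was not called, and 3 were not tested. The 3 probes of Fshr, the receptor of follicle-stimulating hormone, were detected on 1 array at most and not tested.

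Neither regulators nor receptors of steroids were called, with 0 of 12 transcriptional regulators (median -0.03) and 0 of 4 hormone receptors (median 0.05). As 8.38% of all tested genes were called in either direction, 0 calls in lists this short say little. Gata6 and Tcf21, transcription factors of gonadal somatic cells, gave -0.15 (adjusted p = 0.562) and 0.43 (adjusted p = 0.166). Esr1, an estrogen receptor, gave -0.37 (adjusted p = 0.418), and Gper1, a membrane receptor for estrogen, 0.47 (adjusted p = 0.0697).

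**Figure D3:**
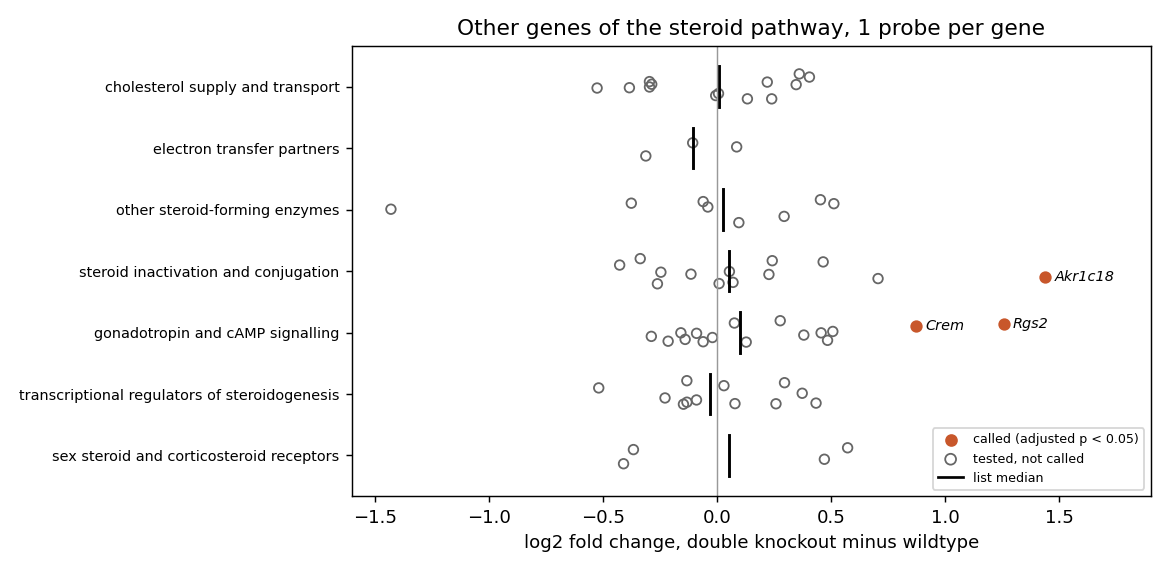
Log2 fold change (double knockout minus wildtype) of each tested gene in the 7 pathway lists, 1 probe per gene, with the vertical spread added for legibility. Filled points are the 3 called genes, open points the genes not called and black bars the list medians, which run from -0.11 to 0.10.

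Cell type markers moved beside these genes. Over all 12163 tested genes 4.79% were called higher and 3.58% lower, with a median change of 0.03. The marker lists were chosen with earlier results of these data known, so their counts beside this share are not an independent test. Of 8 germ cell and oocyte markers 5 fell (median of the list -1.59), among them Lhx8 (-3.74), Gdf9 (-2.73), Kit (-2.31) and Pou5f1 (-2.08). Their list had a summed normalized level of 11194 to 12351 in wildtype and 2855 to 4032 in the double knockout. Of 10 pregranulosa markers tested 2 were called higher (Runx1, 0.67, and Amhr2, 0.63), and all 10 had a positive change (median of the list 0.40). Bmp2 was detected on 0 arrays, and the sum was 5563 and 7779 in wildtype and 9065 to 10560.1 in the double knockout. The probes of the 2 called genes differed: a second Runx1 probe, detected on 0 double-knockout arrays, gave -0.47 (adjusted p = 0.0967, limma). The 2 other Amhr2 probes gave 0.28 and 0.87 and were not called. Of 6 Sertoli markers 4 rose (Cst9, 1.15, Aard, 0.79, Gdnf, 0.77, and Sox9, 0.63), and the median of the list was 0.70. The Sertoli sums were 3666 to 3823 in wildtype and 5528 to 6939 in the double knockout, and Amh was detected on 0 arrays. A second Sox9 probe gave 0.42 (adjusted p = 0.178). In bulk RNA a change in the number of cells of a type and in the RNA of each cell cannot be told apart. The part of germ cell, pregranulosa and Sertoli markers in the rises of Hsd17b1 and Cyp17a1 was not tested.

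No call of a pregranulosa or Sertoli marker held through the removal of each array in turn, though none of these changes reversed direction under any alternative. Removing a wildtype array leaves a single one, and fewer probes were then called over the whole array as well. Amhr2 and Sox9 lost theirs whichever of the 6 arrays was removed (adjusted p up to 0.349 and 0.311). For Runx1, Aard and Gdnf the call ended when wildtype 2, wildtype 3 or double knockout 1 was removed (up to 0.160, 0.154 and 0.155), and for Cst9 when wildtype 2 or 3 was removed (up to 0.0767). The germ cell falls named here held without each array.

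Markers of cells that make androgens or corticosteroids were set beside the 8.38% of all tested genes called in either direction. Of the 3 fetal Leydig markers tested 0 were called by their brightest probe (Vsnl1, 0.57, and Gramd1b, 0.41). A dimmer Gramd1b probe, chosen after its values were seen, was called higher (1.23). The sums were 280.6 to 310.5 in wildtype and 339.7 to 423.7 in the double knockout, without overlap. List medians were 0.41 for fetal Leydig, -0.15 for theca and stroma and 0.45 for adrenal cortex markers. Insl3, the insulin-like peptide of Leydig and theca cells, was at background on 4 of 6 arrays. Of 6 theca and stroma markers 0 were called (sums of 25208 to 26369 and 20101 to 25996, Acta2 -0.31 and Col1a1 -0.27), and Gli1 was detected on 0 arrays. Those sums consist mostly of Acta2, whose 4 tested probes ran from -0.74 to -0.31, with 0 called. Among 5 adrenal cortex markers 1 rose, Mrap, the accessory protein of the corticotropin receptor, with sums of 129.8 to 131.7 and 169.96 to 188.4. Mrap read 67.1 and 56.4 in wildtype, where 1 of 2 arrays detected it, and 77.6, 91.3, 87.4 and 95.7 in the double knockout, a change of 1.09 ± 0.17 (SE, adjusted p = 0.00825) that was 0.58 without background correction and was not called once wildtype 3 was removed (adjusted p = 0.0845). Cyp21a1, the adrenal hydroxylase, and Cyp11b1 and Cyp11b2, which finish corticosteroids, were each detected on 2 arrays at most per probe. The wildtype sums of the adrenal cortex list therefore consist largely of signals near background.

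**Figure D4:**
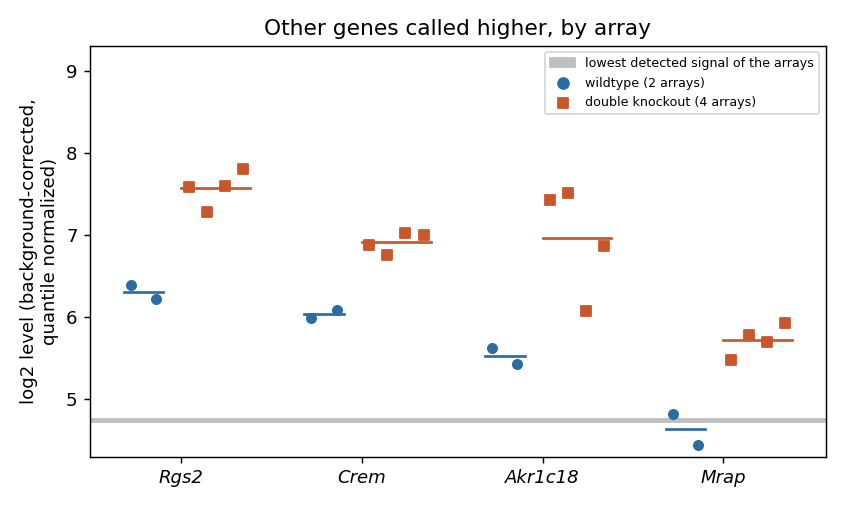
Log2 level (background-corrected and quantile normalized) by array of the 3 called pathway genes and of Mrap; lines are group means and the grey band is the lowest detected signal (4.72 to 4.76). All double-knockout points lie above the wildtype points of the same gene, and array 3 of the double knockout has the lowest Akr1c18 level of its group.

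Markers of other cell types were read too. Of 3 adrenal medulla markers 1 fell, Th, tyrosine hydroxylase, which 0 of 4 double-knockout arrays detected, at least 7.30-fold lower than in wildtype (adjusted p = 3.41e-05), with Dbh, Chga and Slc18a1 detected on 0 arrays and sums of 255 to 259 and 66.0 to 79.4. Endothelial markers gave 0 of 4 called (Cdh5 0.37, Emcn -0.05; sums of 1960.2 to 2187.9 and 2170.5 to 2494.7) and macrophage markers 0 of 3 (Csf1r -0.25, Aif1 -0.30; sums of 199.9 to 223.7 and 149 to 209, with Ptprc at background). The endothelial gene Pecam1 was not called by its brightest probe (0.37) or by another (0.41), while probe ILMN_1226690, detected on 1 of 2 wildtype arrays, was called higher (1.26 ± 0.17 SE, adjusted p = 0.00418), chosen after its values were seen. Of 3 erythroid markers Alas2, the heme synthesis enzyme of red cells, was called higher (1.35). The Alas2 call ended with wildtype 2 or 3 or double knockout 1 or 3 removed, though its change was never below 1.10 under any alternative. The list sums were 23546 to 25298 in wildtype and 26020.3 to 30408 in the double knockout. Those sums consist mostly of the globin gene Hba-a1 (0.09, not called). Slc4a1, the anion exchanger of red cells, chosen after its values were seen, read 223.1 and 113.8 in wildtype against 2835.5, 239.0, 4068.1 and 1343.7. Its double-knockout arrays did not overlap the wildtype arrays but differed widely among themselves (3.72 ± 1.03 SE, adjusted p = 0.0628). The part of all these markers in the changes of the steroid genes was not tested.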

How the data were processed

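The table deposited by the authors gives the raw intensity of each probe on each array, not background-subtracted and not normalized, and a detection score that equals 1 minus the detection p. The authors' series matrix, also deposited, holds intensity values on a linear scale that were normalized between arrays, not centred, with medians of 59.5 and 59.6. It runs in the same direction as the raw signals, and the authors' method is not given in the sources used here. Signals came from GenomeStudio, per the submitters' processing notes. All arrays lay on 1 slide.

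Normexp background correction used the detection p-values (nec, offset 16, limma 3.58.1, R 4.3.3), followed by quantile normalization and log2. Probes detected (p under 0.05) on at least 2 of 6 arrays were tested, 21981 of 45281. Genotypes were compared with lmFit and eBayes on all arrays without covariate, with Benjamini-Hochberg adjustment over probes; the number of arrays limits the precision. An exact permutation test of 2 against 4 arrays cannot give a p under 0.0667, so it was not used. Gene lists took the brightest tested probe of a gene. Names came from the platform annotation, in which 34885 probes had 1 symbol, 18 several and 10378 none here. Named genes were all members, up to 4 called genes of each list by size of change or else the 2 brightest, and the 3 nearest patterns of each called member. Members and lists were chosen with earlier results of these data known. The fit was tested on simulated data. Alternatives changed the background correction, offset, scaling, filter, probes per gene, array weights, replicate numbers and arrays.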

Additional observations from a re-analysis of the deposited data

Results flagged for a closer look

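Among 46 probes examined for an array far from the other double-knockout arrays, 2 stood out, and chance alone sets apart about 1 group in 20. Double-knockout array 3 had a log2 level of 5.24 for Nr5a1 (probe ILMN_1254140), below 5.64, 5.67 and 5.67 on the other arrays of its genotype. Double-knockout array 2 had a log2 level of 8.41 for the Sertoli marker Cst9, above 7.91, 7.99 and 8.0 on the others.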

How the results depend on the processing

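Called probes over the array numbered 1598, and 224 (without wildtype array 2) to 1431 when an array was left out. Of the member probes 2 were called, and 0 to 2 with an array left out, 0 without wildtype array 2 (5 of 6 tested probes higher in the double knockout) and 1 without wildtype array 3. Called pathway genes numbered 3, and 0 to 3 with an array left out. The Nr5a1 probe ILMN_1254140 ran from -0.13 (without wildtype array 2) to 0.38 when an array was left out, and no other member probe changed sign under any alternative tried. With the number in the title as a replicate block, 881 probes and 1 member probe (Hsd17b1) were called, and with the description's number 1262 and 2. Same-numbered arrays did not deviate together (r = -0.10 and -0.03 by title, -0.11 and 0.10 by description), but the deviations of 2 wildtype arrays mirror each other, so this check settles little, and the numbers were not taken as pairs. Cyp17a1 was called in 15 of 18 alternatives (0.52 to 0.93; adjusted p = 0.0573 under the block by title number) and Hsd17b1 in 17 of 18 (0.82 to 1.16). Leaving out double-knockout arrays 3 and 5 together, chosen after seeing the data, left 1139 called probes and both member calls. Signals near background limit every member: without its correction the changes shrank but kept their direction.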

Other observations

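Probes assigned to 1 gene differed widely in the 3-beta-hydroxysteroid dehydrogenase family. Hsd3b2 had 6 probes, of which ILMN_2898958 gave 1269.8 to 1952 on all arrays and the other 5 were detected on 0 arrays, while the Hsd3b1 probe was at background. Whether the bright probe reads Hsd3b2 or a relative was not tested. Hsd3b4, another member of the family, is outside the naming rule. It read 109.7 and 179.9 in wildtype against 86.5, 49.8, 82.8 and 62.7 in the double knockout (-1.43 ± 0.43 SE, adjusted p = 0.0796, limma).

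Gramd1b, which moves cholesterol between membranes, gave 0.41 (adjusted p = 0.112) by its brighter tested probe and was called higher by the dimmer, at 1.23 ± 0.19 (SE, adjusted p = 0.00726, limma), a probe chosen after its values were seen. Esr2, the estrogen receptor of granulosa cells, is outside the naming rule. Its brightest probe read 187.6 on double-knockout array 5 and 87.5 to 107.7 on the other double-knockout arrays. The change was 0.57 (adjusted p = 0.394, limma). The other tested Esr2 probe gave 0.78 and was not called.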
